A study of Mus musculus with 12 samples.

Results

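The 35 genes described here encode proteins that build ribosomes in the nucleolus: RNA polymerase I subunits and initiation factors, small nucleolar ribonucleoprotein (snoRNP) subunits, nucleolar phosphoproteins, and assembly factors of the small (40S) and large (60S) subunits. They were chosen by name, from a list of genes for ribosomal RNA (rRNA) transcription, processing and nucleolar assembly. The rule used no measured value, but earlier results of these data were known when the list was made. All 35 had a row among the 56205 genes of the count table, and all 35 passed the filter on low counts. RNA came from the whole livers of 12 obese ob/ob mice (B6.Cg-Lep ob/J, which lack leptin), with 1 poly(A)-selected library per mouse. In the FLO group, 6 young adult mice ate chow, and in the fibrotic group 6 ate the same chow and received ethionine, an analogue of methionine. The labels conflict on its delivery: one field gives 2 weeks of drinking water at 0.165%, another an injection of 0.15%. The study's methods describe drinking water at the lower of these doses for a shorter time. Both groups therefore carry the ob mutation, and no lean mouse entered the comparison. The group names FLO and fibrotic come from the sample titles, and the degree of fibrosis was not assessed here. The study described its ethionine-treated ob/ob mice as a model with microvesicular steatosis and inflammation. It saw no difference in their Col1a1 expression.

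Total counts per library ranged from 17815568 to 24814263. The defining hepatocyte markers were present throughout, with 8 markers summing to between 90435 and 108798 CPM (counts scaled to a library's size, here with TMM) in FLO and between 66868 and 111121 CPM in fibrotic libraries. The labels state males only, but FLO replicate 3 held 3773 Xist counts and 4 Ddx3y counts, against 0 to 4 and 556 to 977 in the other libraries. The numbers of called members and the ratios between subunits are also given without this library. In RNA from whole liver, fewer cells of a type and less RNA per cell cannot be told apart.

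Ribosome assembly begins with transcription of the rRNA precursor by RNA polymerase I. Box C/D snoRNPs then methylate riboses of the precursor and box H/ACA snoRNPs convert uridines to pseudouridines, each guided by a small nucleolar RNA (snoRNA). The small subunit processome cleaves and folds the part that becomes the 40S subunit, while a separate series of factors assembles the 60S subunit. In liver the pathway is known to respond to nutrition and to growth after injury.

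The question was how these genes differed between the fibrotic and the FLO livers. Of 35 members, 10 were higher in fibrotic livers (28.6%), with a background of 15.9% of the 13416 tested genes called higher. Calls required an adjusted p (FDR) of at most 0.01 and a log2 fold change (log2FC) beyond 0.5 in either direction. The 10 were Polr1a, Polr1e, Nhp2, Nolc1, Ddx21, Rrp12, Bysl, Nop2, Noc2l and Rrs1. One member, Npm1, was lower (2.86%, with a background of 14% called lower). The other 24 were not called, and each of their 95% intervals lay within a 2-fold change, with bounds from -0.67 to 0.95 on the log2 scale. The median log2FC was 0.24 over the members and 0.03 over all tested genes. For 12 members all fibrotic libraries were above all FLO libraries, with a background of 15.3%, and for 2 all were below, with a background of 15.1%. With no fold threshold, 12 members were higher (background 20.3%) and 2 lower (background 18.6%), the added ones being Polr1b, Gnl3 and Wdr12.

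**Figure D1:**
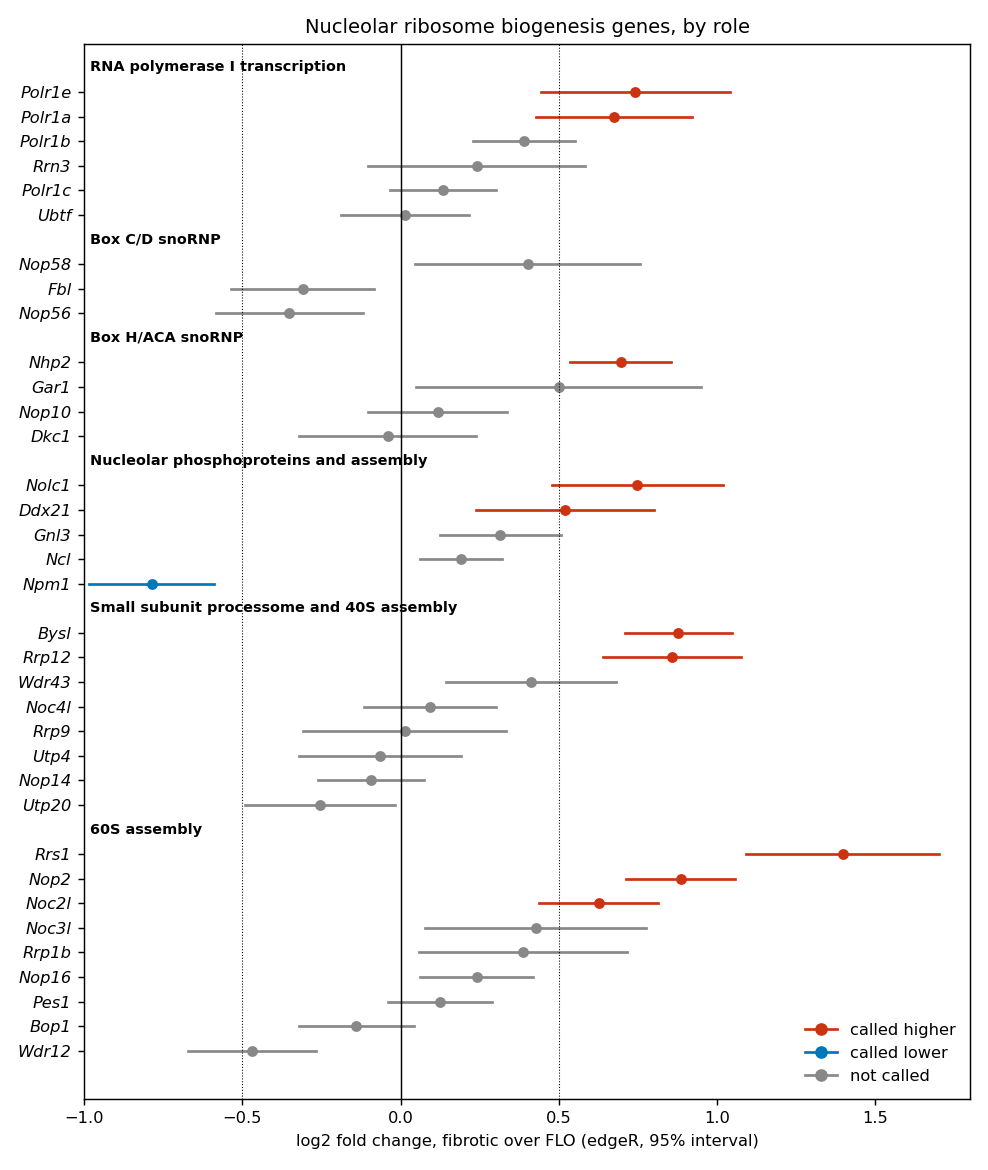
Log2 fold change of each of the 35 members (x axis, fibrotic over FLO, 6 against 6 libraries) by role, with points for the edgeR estimates, lines for 95% intervals and dotted lines at 0.5 and -0.5. Called genes appear in all roles but box C/D, Rrs1 lies farthest to the right at 1.40, and Npm1 at -0.79 is the one called gene to the left.

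The promoters of 30 members were found in RefSeq (GRCm38.p6), as 250 bases before to 50 bases after the annotated gene start, and Rrs1, Npm1, Rrp12, Fbl and Bop1 were not among them. Both strands were searched for CACGTG, the E-box bound by Myc and related factors, and for CCGGAAG, a core of sites for ETS factors, which reads CTTCCGG on the opposite strand. The E-box cannot overlap the ETS letters, whereas the 2 forms of the ETS letters share CCGG and can be read from 1 run of bases. The 4 promoters shown hold the motifs in members that were called higher (Nop2, a large subunit rRNA methyltransferase gene, and Nhp2, a box H/ACA subunit gene) and in members that were not (Rrn3, the polymerase I initiation factor gene, and Utp4, a small subunit processome gene). Capitals mark the E-box and ETS letters. Each is read 5′ to 3′ on the plus strand, at chr6:125131633-125131932, chr11:51619523-51619822, chr16:13780449-13780748 and chr8:106893390-106893689, in that order.
Nop2: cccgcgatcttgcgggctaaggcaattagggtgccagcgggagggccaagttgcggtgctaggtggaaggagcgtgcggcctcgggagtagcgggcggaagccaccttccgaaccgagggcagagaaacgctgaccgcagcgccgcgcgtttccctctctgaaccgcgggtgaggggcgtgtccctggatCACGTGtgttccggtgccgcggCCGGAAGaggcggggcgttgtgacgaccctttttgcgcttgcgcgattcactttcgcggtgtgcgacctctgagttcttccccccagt
Nhp2: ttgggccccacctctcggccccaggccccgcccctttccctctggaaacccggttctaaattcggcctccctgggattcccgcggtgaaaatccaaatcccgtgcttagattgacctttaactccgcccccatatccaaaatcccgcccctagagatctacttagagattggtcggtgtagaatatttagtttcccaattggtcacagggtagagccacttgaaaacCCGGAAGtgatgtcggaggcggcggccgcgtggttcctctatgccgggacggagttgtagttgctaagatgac
Rrn3: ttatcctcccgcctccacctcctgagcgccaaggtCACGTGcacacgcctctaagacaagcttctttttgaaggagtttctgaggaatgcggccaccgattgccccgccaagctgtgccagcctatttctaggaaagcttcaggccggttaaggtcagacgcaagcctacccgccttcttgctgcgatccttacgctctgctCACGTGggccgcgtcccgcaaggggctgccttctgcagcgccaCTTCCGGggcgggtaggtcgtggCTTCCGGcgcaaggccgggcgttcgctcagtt
Utp4: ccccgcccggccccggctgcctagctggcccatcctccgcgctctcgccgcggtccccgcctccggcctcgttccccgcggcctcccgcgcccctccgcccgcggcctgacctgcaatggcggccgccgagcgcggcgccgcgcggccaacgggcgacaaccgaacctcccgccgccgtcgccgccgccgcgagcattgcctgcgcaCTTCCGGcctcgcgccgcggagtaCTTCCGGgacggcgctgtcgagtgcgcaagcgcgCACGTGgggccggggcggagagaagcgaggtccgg

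The E-box was in 6 of 30 member promoters (20%) and in 7.24% of the promoters of 27025 genes. Those 6 were Nop2, Pes1, Rrn3, Utp20, Utp4 and Wdr43. Of them, 1 was called higher, against 7 of the 24 members without it, and their log2FCs ran from -0.26 to 0.88. The ETS letters were in 10 of 30 member promoters (33.3%) and in 9.12% of all. Of the members with the ETS letters, 5 of 10 were called higher, against 3 of 20 without them. Over all tested genes 15.9% were called higher. The share called among all genes with or without either motif was not counted, so these splits are not read as a link to the motifs. Rrn3 and Utp4 carry both motifs and were not called, while Nop2 carries both and rose. Of 2 further motifs searched on both strands, the consensus palindrome of NRF1 and AAGATGG (bound by YY1) were in 0.977% and 6.48% of all promoters and in none of the 30 member promoters. These are matches of letters in a short window and not measured binding. Another gene started head to head within 1000 bases for 11 of 30 members (36.7%), against 11.4% of all genes with a promoter, and the neighbours did not always move with the member. Ptcd3, which starts 291 bases from Polr1a, had a log2FC of -0.41 beside 0.67 for Polr1a. Chtf8, 47 bases from Utp4, was called higher at 0.57 beside -0.07 for Utp4. The 27025 background genes were not limited to the 13416 tested genes or matched for GC content. The motif and head-to-head shares among expressed genes alone may therefore differ.

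Among the RNA polymerase I genes, Polr1a, which encodes the largest catalytic subunit, had a lowest, median and highest value of 15.1, 19.4 and 21.7 CPM in FLO and 23.9, 29.9 and 37.3 CPM in fibrotic livers. Every fibrotic library lay above every FLO library, and the log2FC was 0.67 (SE 0.12, adjusted p = 0.000184). Polr1e, a subunit of the polymerase's initiation module, was measured at 2.41, 3.04 and 3.94 CPM in FLO and 4.56, 5.12 and 5.76 CPM in fibrotic livers, again without overlap, with a log2FC of 0.74 (SE 0.14, adjusted p = 0.000420). Polr1b, the other large catalytic subunit, also had groups that did not overlap, at 13.8, 14.5 and 15.7 CPM in FLO and 17.3, 19.3 and 20.9 CPM in fibrotic livers. Its log2FC of 0.39 (SE 0.08, adjusted p = 0.000519) passed the p threshold and missed the fold threshold. Polr1c, a subunit shared with RNA polymerase III, was at 0.13 with overlapping groups.

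Neither of the listed factors that bring the polymerase to its promoter was called. Rrn3 was measured at 10.2, 12.9 and 14.8 CPM in FLO and 11.8, 12.8 and 23.1 CPM in fibrotic livers, with nearly equal medians and a log2FC of 0.24 (95% interval -0.10 to 0.58). The fibrotic maximum was replicate 4. Ubtf, which binds the rRNA gene repeats, was measured at 36.8, 43.4 and 47.4 CPM in FLO and 37.5, 42.6 and 55.0 CPM in fibrotic livers, with a log2FC of 0.01 (95% interval -0.19 to 0.22). Of the 6 polymerase I members, 2 thus rose and 0 were called lower (0 also by DESeq2 and limma-voom, and 0 in edgeR at an unadjusted p under 0.05), with a median of 0.32.

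The box C/D snoRNP genes did not move as a unit. Fbl, the rRNA ribose methyltransferase, was measured at 16.1, 21.2 and 24.9 CPM in FLO and 15.2, 17.1 and 19.0 CPM in fibrotic livers, and its log2FC was -0.31 (SE 0.11, adjusted p = 0.0232). Nop56, a scaffold subunit, had -0.35 (adjusted p = 0.0139), and its paralogous partner Nop58 had 0.40 (adjusted p = 0.0558). Of the 3, 0 were called by edgeR, DESeq2 or limma-voom, while at an unadjusted p under 0.05 in edgeR 1 was higher and 2 lower. The groups overlapped for each gene. The Fbl value is uncertain, because much of its annotated transcript is near-identical to part of Tulp4, whose level was 50.4 ± 9.16 CPM in FLO and 73.6 ± 10.7 CPM in fibrotic livers (SD, n = 6 each), and the treatment of reads with several matches is not known.

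Among the 4 box H/ACA genes, Nhp2, an RNA-binding subunit, was the one called. It was measured at 25.9, 27.8 and 29.3 CPM in FLO and 40.7, 43.8 and 53.4 CPM in fibrotic livers, a wide gap between the groups, with a log2FC of 0.70 (SE 0.07, adjusted p = 2.37e-06). Dkc1, the pseudouridine synthase, was measured at 5.57, 7.03 and 9.29 CPM in FLO and 5.93, 7.15 and 7.54 CPM in fibrotic livers. Its groups overlapped almost fully, and its log2FC was -0.04 (95% interval -0.32 to 0.24). Nop10 had a value of 0.12 and Gar1 one of 0.50 with a wide interval from 0.05 to 0.95, at 1.37 to 4.68 CPM over all libraries.

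The nucleolar phosphoproteins held both directions. Npm1 (nucleophosmin), an abundant chaperone of the granular part of the nucleolus, was measured at 35.8, 41.5 and 51.8 CPM in FLO and 21.7, 24.3 and 27.5 CPM in fibrotic livers. All fibrotic libraries lay below all FLO libraries, and the log2FC was -0.79 (SE 0.09, adjusted p = 5.51e-06), a level 0.580 times that in FLO. The 3 annotated pseudogene copies of Npm1 held 1.08% of the counts of the gene and its copies. Ncl (nucleolin), which binds the rRNA precursor, was measured at 88.4, 92.3 and 94.9 CPM in FLO and 99.9, 104 and 113 CPM in fibrotic livers. The Ncl groups did not overlap, but the log2FC of 0.19 (SE 0.06, adjusted p = 0.0158) met neither threshold.

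Nolc1, a chaperone of snoRNPs, was measured at 12.4, 15.7 and 16.8 CPM in FLO and 21.7, 23.8 and 37.2 CPM in fibrotic livers. The groups were separate and the log2FC was 0.75 (SE 0.13, adjusted p = 0.000156). Ddx21, an RNA helicase that acts on rRNA transcription and processing, was measured at 19.8, 23.3 and 26.4 CPM in FLO and 26.0, 31.9 and 49.1 CPM in fibrotic livers, with overlap, since the lowest fibrotic library lay under the highest FLO library. Its log2FC was 0.52 (SE 0.13, adjusted p = 0.00390). This is the least secure call of the 11: the log2FC was 0.39 without fibrotic replicate 4, and the adjusted p was 0.0104 without FLO replicate 2 and 0.0106 without FLO replicate 3. Gnl3 (nucleostemin), a nucleolar GTP-binding protein, had a log2FC of 0.32 (adjusted p = 0.00833) and was under the fold threshold.

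Among the small subunit genes, Bysl, needed for maturation of the 40S precursor, was measured at 14.6, 17.8 and 18.8 CPM in FLO and 28.9, 32.3 and 34.3 CPM in fibrotic livers, with no library near the other group. The log2FC was 0.88 (SE 0.08, adjusted p = 4.67e-07), a 1.84-fold rise. Bysl shares 361 exon bases on the opposite strand with Ccnd3, whose level was 55.5 ± 4.62 CPM in FLO and 49.5 ± 2.23 CPM in fibrotic livers, and whether the counting used strand is not known. Rrp12, a factor for export and processing of the precursors, was measured at 7.55, 7.93 and 8.96 CPM in FLO and 12.3, 14.7 and 17.8 CPM in fibrotic livers, again apart. Its log2FC was 0.86 (SE 0.10, adjusted p = 6.31e-06).

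The other 6 small subunit members were not called. Wdr43, an early processome protein, had a log2FC of 0.41 (adjusted p = 0.0126), and Noc4l and its partner Nop14 had 0.09 and -0.09. Rrp9, a protein of the U3 snoRNP, had 0.01 with the widest interval of the group, from -0.31 to 0.33. The processome proteins Utp20 and Utp4 had -0.26 and -0.07. The median over the 8 genes was 0.05, near that of all tested genes.

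Among the large subunit genes, Rrs1, which helps bring the 5S ribonucleoprotein into the 60S precursor, had the highest fold change of all 35 members. It was measured at 18.4, 22.0 and 28.0 CPM in FLO and 47.1, 54.0 and 88.4 CPM in fibrotic livers. The lowest fibrotic library was well above the highest FLO library, and the log2FC was 1.40 (SE 0.14, adjusted p = 1.50e-06), a 2.63-fold rise. Nop2 was measured at 16.7, 17.9 and 20.2 CPM in FLO and 28.1, 33.4 and 37.4 CPM in fibrotic livers, with separate groups and a log2FC of 0.88 (SE 0.08, adjusted p = 5.12e-07). Noc2l, a 60S assembly and export factor, was measured at 20.1, 23.4 and 27.2 CPM in FLO and 31.8, 36.6 and 41.1 CPM in fibrotic livers, also separate, with a log2FC of 0.63 (SE 0.09, adjusted p = 3.08e-05).

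The 3 genes of the PeBoW complex, which processes the precursor of the 60S rRNAs, were not called. Pes1 had a log2FC of 0.12, Bop1 of -0.14 and Wdr12 of -0.47. Wdr12 was lower in all 6 fibrotic libraries than in any FLO library, at 11.4, 12.6 and 13.9 CPM in FLO and 7.90, 8.94 and 10.7 CPM in fibrotic livers, and its adjusted p of 0.000729 passed while its fold did not. It was called lower without fibrotic replicate 1 (-0.52) or FLO replicate 4 (-0.50). Noc3l, Rrp1b and Nop16 had log2FCs of 0.43 (adjusted p = 0.0402), 0.39 (adjusted p = 0.0474) and 0.24 (adjusted p = 0.0260). The median over the 9 genes was 0.39.

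**Figure D2:**
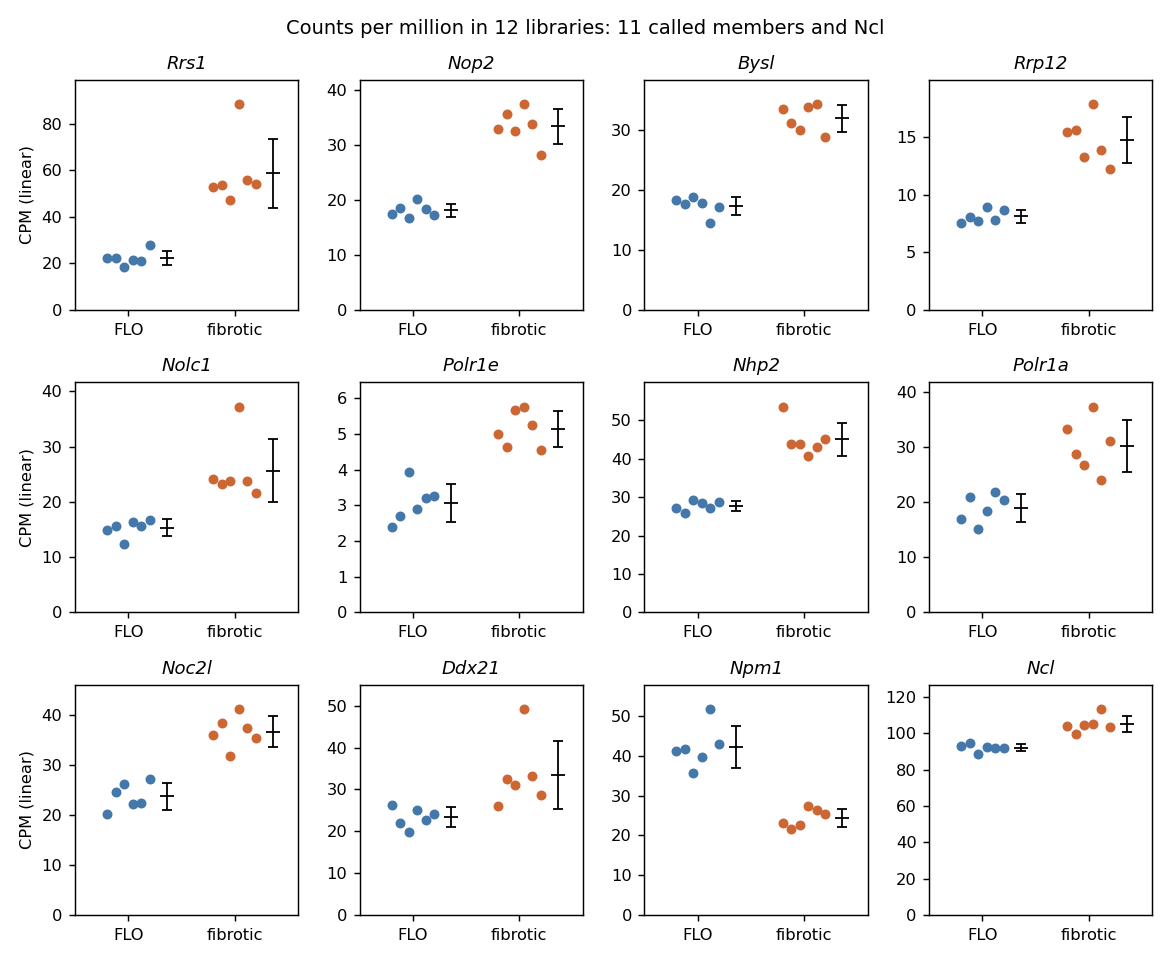
CPM (linear y axis from 0) in each of the 12 libraries for the 11 called members and Ncl, with FLO in blue, fibrotic in orange, replicates 1 to 6 from left to right, and black bars for the mean and SD. Groups are separate for all panels but Ddx21, Npm1 is the panel in which fibrotic values are lower, and fibrotic replicate 4 is the top point for Rrs1 (88.4 CPM), Nolc1 (37.2 CPM) and Ddx21 (49.1 CPM).

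Per kilobase of the annotated principal transcript, the highest FLO medians were 30.9 CPM for Nop10, 26.7 CPM for Nhp2, 25.4 CPM for Npm1 and 17.7 CPM for Fbl. In fibrotic livers the corresponding order was Nhp2 at 42.1 CPM, Nop10 at 35.3 CPM, Rrs1 at 26.3 CPM and Npm1 at 14.9 CPM per kilobase. Rrp1b, Noc3l and Polr1e were at 0.924, 0.967 and 1.02 CPM per kilobase in FLO. The lengths come from GENCODE M21, which may not be the annotation of the counts, and Ncl and Wdr12 were left out because their annotated principal transcripts of 8202 and 10012 bases may overstate their length.

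Since subunits of one complex differed in their fold changes, 20 pairs of members were compared, namely those within a list of complexes. The list does not hold every complex, and members such as Rrp9, Utp4 and Wdr43 were in no pair. The measure was the log2 ratio of the counts of a pair within each library. This ratio does not depend on how libraries are scaled. The complexes were listed after the values of single genes had been seen. Each difference between groups was tested by exact permutation (two-sided, 924 assignments of the libraries), with p adjusted over the 20 pairs. The difference had an adjusted p of 0.05 or less for 9 pairs, and for 6 of these the groups did not overlap. Those 6 each reached p = 0.00216, the smallest the exact test can give, with an adjusted p of 0.00722.

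In the box H/ACA complex, the log2 ratio of Nhp2 to Dkc1 had a lowest, median and highest value of 1.65, 1.95 and 2.28 in FLO and 2.48, 2.61 and 2.95 in fibrotic livers, a difference of 0.71. The ratio of Nhp2 to Nop10 differed by 0.57, from -0.58, -0.28 and -0.06 in FLO to 0.14, 0.26 and 0.47 in fibrotic livers. Nop10 to Dkc1 differed by 0.14 (exact p = 0.463), and none of the 3 ratios with Gar1, the gene with fewest counts of the 4, passed. The gain of counts was thus on Nhp2 relative to Dkc1 and Nop10.

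In the box C/D complex, the log2 ratio of Nop58 to Nop56 was -1.14, -0.91 and -0.59 in FLO and -0.43, -0.26 and 0.32 in fibrotic livers, a difference of 0.71. Nop58 to Fbl differed by 0.65, while Fbl to Nop56 differed by 0.06 (exact p = 0.675). So although no box C/D gene was called by itself, the ratios of Nop58 to both partners were higher in fibrotic livers. The differences were 0.61 and 0.53 without fibrotic replicate 4. Ratios with Fbl carry the uncertainty of the Fbl value described above. In the PeBoW complex, Pes1 to Wdr12 was 0.90, 1.09 and 1.44 in FLO and 1.45, 1.79 and 1.94 in fibrotic livers, a difference of 0.60, and Bop1 to Wdr12 differed by 0.34 (exact p = 0.0152, adjusted p = 0.0337).

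In RNA polymerase I, the log2 ratio of Polr1a to Polr1c was -0.03, 0.41 and 0.55 in FLO and 0.61, 0.86 and 1.20 in fibrotic livers, a difference of 0.54. Polr1e to Polr1c differed by 0.62 (exact p = 0.00433, adjusted p = 0.0124) and Polr1b to Polr1c by 0.26 (exact p = 0.0108, adjusted p = 0.0271). The subunits Polr1a, Polr1b and Polr1e thus each gained on the shared subunit Polr1c. Among themselves, none of their 3 ratios had an adjusted p of 0.05 or less, with differences of 0.09 to 0.36. Leaving out any 1 library left the smallest of the 9 differences, that of Polr1b to Polr1c, at 0.20 or more. Without FLO replicate 3 the 9 differences ran from 0.24 to 0.77, and that of Polr1a to Polr1c was 0.46.

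**Figure D3:**
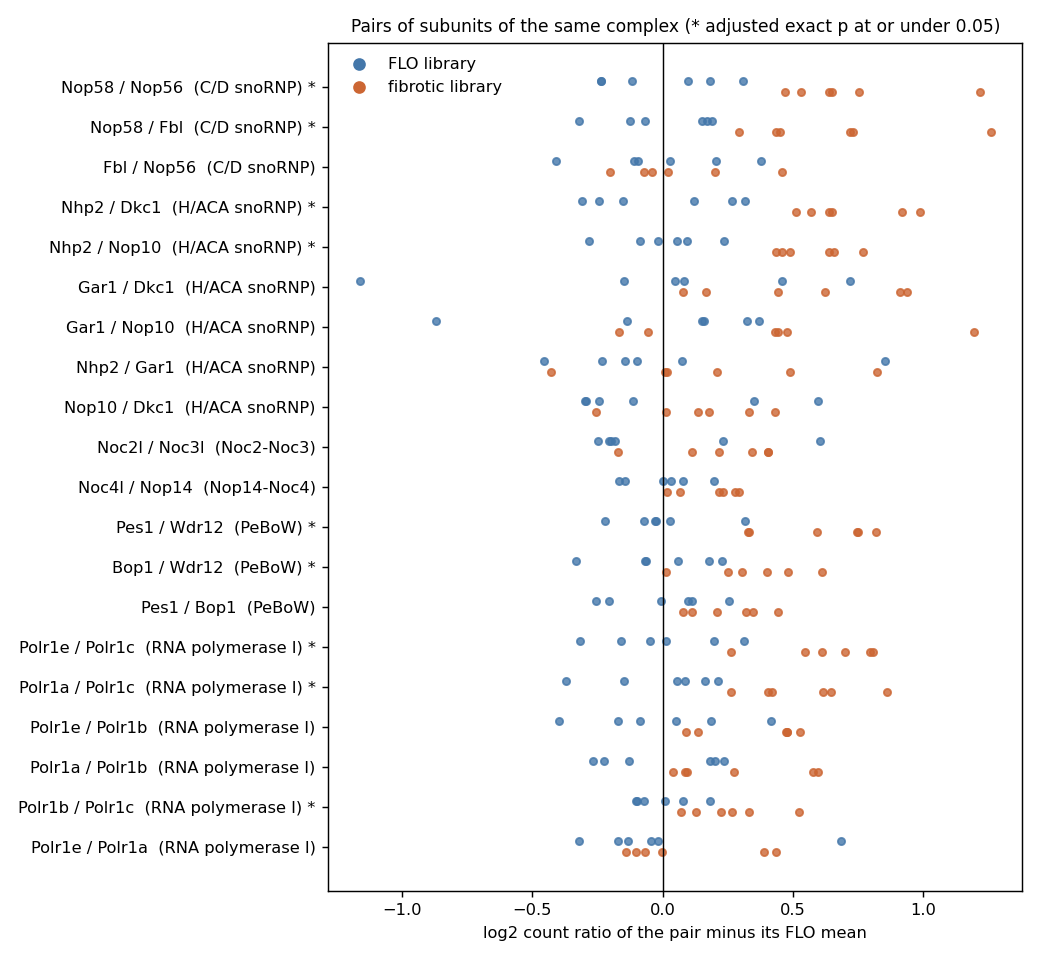
Log2 count ratio (x axis) of each of the 20 pairs of subunits, minus the mean of the 6 FLO libraries, with 1 point per library (FLO blue, fibrotic orange) and a star for an adjusted exact p of 0.05 or less. The 2 groups are separate for Nop58 to Nop56 and to Fbl, Nhp2 to Dkc1 and to Nop10, Pes1 to Wdr12 and Polr1a to Polr1c.

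The members were also compared library by library. Fibrotic replicate 4 had the highest value of all 12 libraries for 19 of the 35 members, and 25 of its members lay above the highest FLO library. Its median log2 deviation from the FLO mean was 0.45, against 0.10 to 0.30 in the other 5 fibrotic libraries and -0.04 to 0.05 in the FLO libraries. Without it, 9 members were called higher, Ddx21 being lost, and 1 was called lower. The same numbers were found without FLO replicate 3, whose sex-linked counts went against its label. FLO replicate 3 held the lowest FLO value of Polr1a and the highest of Polr1e and Dkc1, and without it their log2FC were 0.61, 0.83 and 0.04.

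**Figure D4:**
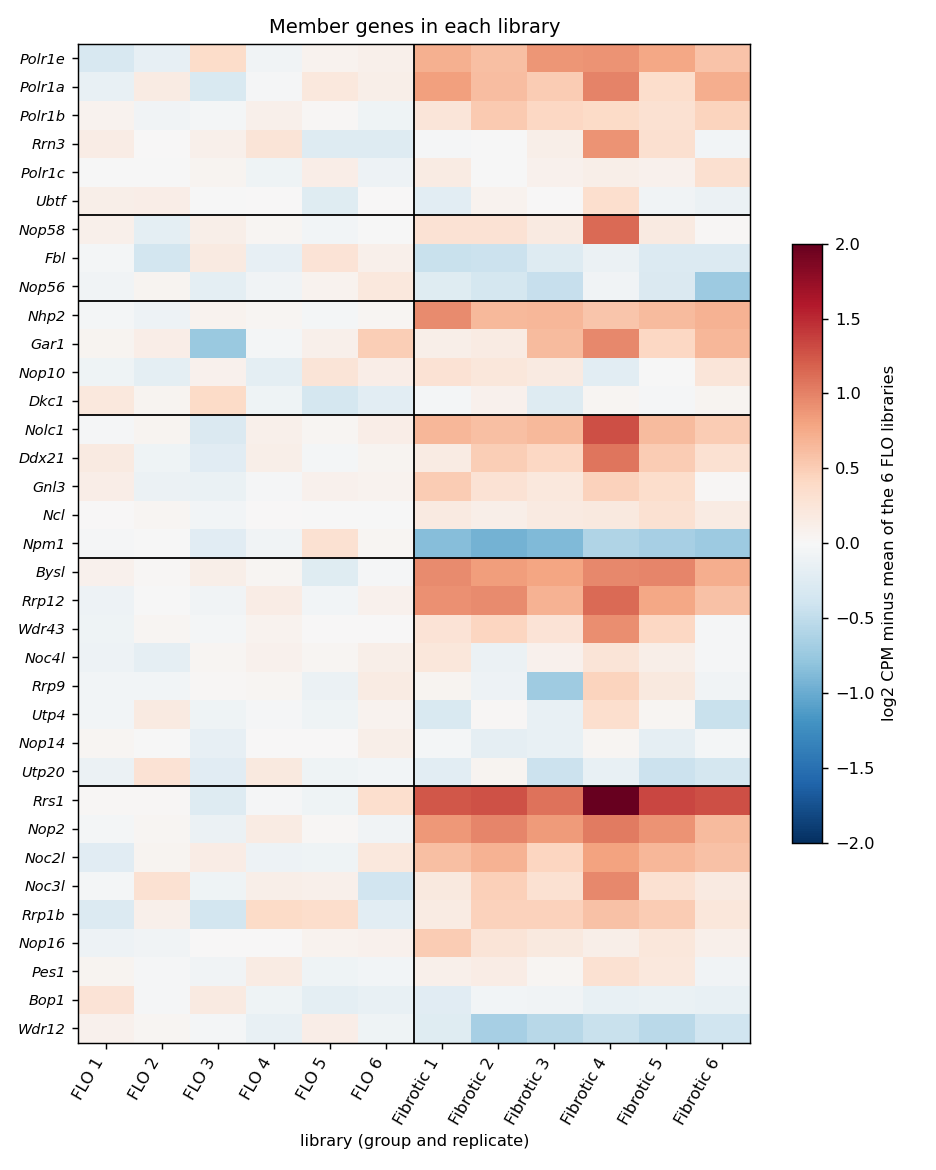
Log2 CPM of each member (rows, grouped by role) in each library (columns), minus the mean of the 6 FLO libraries, with red for higher and blue for lower values. The rows of the members called higher are red in all 6 fibrotic libraries. Npm1 (called lower) and Wdr12 (not called) are blue there. Fibrotic replicate 4 is the darkest column, with 19 of 35 members at their highest.

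Among markers of other cells, the macrophage and endothelial sums did not overlap between the groups, while the cholangiocyte and stellate sums did. Of 8 macrophage and Kupffer cell markers, 6 were called higher, and the summed level was 185 to 225 CPM in FLO and 242 to 504 CPM in fibrotic livers, with no marker at 0. Of 6 cholangiocyte markers 5 were tested and 3 called higher, with sums of 47.2 to 88.0 CPM and 80.7 to 275 CPM. Endothelial markers summed to 171 to 193 CPM in FLO and 119 to 157 CPM in fibrotic livers, with 1 of 6 called lower. Stellate cell markers, 1 of 7 called higher, summed to 191 to 264 CPM and 218 to 331 CPM. The 7 lymphocyte markers summed to at most 4.04 CPM in any library, and Ms4a1 and Klrb1c had a count of 0 in at least 1 library. Of 8 proliferation genes, 3 (Mki67, Ccnb1 and Birc5) were called lower and 1, Mcm2, higher, and the sums were 49.5 to 62.1 CPM in FLO and 35.6 to 55.1 CPM in fibrotic livers. Of the 8 hepatocyte markers 2 were called lower and 1 higher. The part of cell makeup in the member values was not tested.

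Other ribosome biogenesis genes were read from 5 further lists, which hold 145 genes that are not members. Of 143 tested, 22 were higher (15.4%, background 15.9%) and 8 were lower (5.59%, background 14%), with a median log2FC of 0.15. The share called higher was thus near that of all tested genes, and the share called lower was under it. The 47 other 60S genes, a list without Nop53, held 10 higher (21.3%) and 0 lower in edgeR, with a median of 0.27. Of these 47, 1 was lower by DESeq2, 0 by limma-voom, and 4 in edgeR at an unadjusted p under 0.05. The 10 higher genes were led by Rrp15 (1.44), Lsg1 (0.91), Ddx24 (0.90) and Nol12 (0.84). The 47 other small subunit genes held 5 higher (10.6%) and 4 lower (8.51%). Among them the GTPase-like factor Tsr1 (1.01), Nop9 (0.74) and the helicase Dhx37 (0.64) rose, and Trmt112, an activator of several methyltransferases, fell by 0.78 on the log2 scale. Of 16 other polymerase I genes, Taf1c (1.05), a subunit of the promoter selectivity factor, Polr2e (0.59), shared by the nuclear RNA polymerases, and Polr1g (0.58) rose. None of the 16 was called lower by edgeR, DESeq2 or limma-voom, and 2 were lower in edgeR at an unadjusted p under 0.05. Over all 8 further lists, with those of the host genes, Myc and p53 below, 29 genes were higher (16.7%) and 13 lower (7.47%) of 174 tested, with the same backgrounds of 15.9% and 14%. Scaled by library size alone, the split was 52 and 6, with the median of all genes moved up by 0.18.

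The 12 other snoRNP and assembly genes held 0 called higher and 2 called lower. The lower ones were Pih1d1 (-1.02), of the complex that helps assemble snoRNPs, and Nop53 (-0.54). DESeq2 and limma-voom also called 0 higher, and 3 of the 12 were higher in edgeR at an unadjusted p under 0.05. Nop53 was counted in this list and not among the other large subunit genes. The lower counts of both lists depend on that placement. Of 21 tested exosome and RNase MRP genes, which trim and cut the precursor, 4 were higher (19%, background 15.9%) and 2 lower (9.52%, background 14%). Among them Pop7 was at 1.58, Exosc4 at 1.09, Rpp38 at 0.98 and Rpp21 at -0.70.

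**Figure D5:**
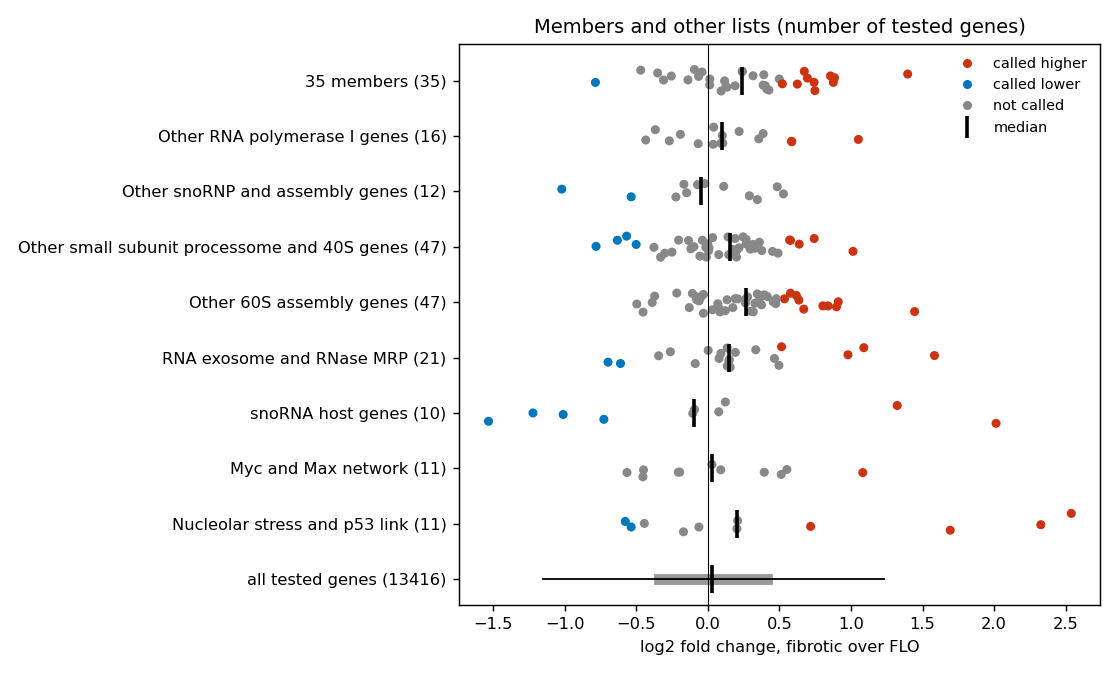
Log2 fold change (x axis, fibrotic over FLO) of the members and of 8 other lists, with 1 point per tested gene and a black bar at the median, beside all 13416 tested genes, drawn as the 5th to 95th percentile (line) and the quartiles (box). Member and list points fall on both sides of 0, the member median of 0.24 is close to the 0.27 of the other 60S genes, and the snoRNA host genes hold called genes in both directions.

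Many snoRNAs are cut from introns of host genes. According to GENCODE M21, 6 members hold snoRNA genes within their own span: Nop56 (5), Nop58 (4), Ncl, Gnl3 and Wdr43 (3 each) and Dkc1 (1). None of these 6 was called, with a background of 29.9% called in either direction. Of the 29 members without one, 10 were higher (background 15.9%) and 1 lower (background 14%). The median log2FCs were 0.25 with and 0.24 without a snoRNA gene. With 6 genes, the lack of calls is not read as a trait of the hosts. Of 10 dedicated snoRNA host genes, most of them noncoding, 2 were higher (20%, background 15.9%) and 4 lower (40%, background 14%). Snhg15 had 2.01 and Snhg5 1.32, while Snhg8 had -1.53 and Gas5 -1.22. The snoRNAs themselves were not measured, because the libraries were poly(A)-selected.

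Myc, a known activator of ribosome biogenesis genes, was not called, with a lowest, median and highest value of 3.39, 6.21 and 22.9 CPM in FLO and 6.48, 10.1 and 27.9 CPM in fibrotic livers. The spread within each group exceeded the difference, and the log2FC of 0.51 had a 95% interval from -0.52 to 1.55 (adjusted p = 0.392). Its relative Mycl was called, at 19.0 ± 1.73 CPM in FLO and 40.3 ± 6.41 CPM in fibrotic livers (SD, n = 6 each), with a log2FC of 1.08. In edgeR it was the 1 gene called among the 11 tested of the Myc and Max network (9.09%, background 15.9% called higher). DESeq2 called 1 higher and 1 lower and limma-voom 1 higher, and 2 were higher and 3 lower in edgeR at an unadjusted p under 0.05. Of 11 tested genes that link the nucleolus to p53, 4 were higher (36.4%, background 15.9%) and 2 lower (18.2%, background 14%). Cdkn1a (2.54), Mdm2 (1.69) and Trp53 (0.72) were higher, and Nop53 (-0.54) and Sirt7 (-0.58) lower.

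The remaining called gene of that list, Rpl5, encodes a ribosomal protein that binds Mdm2. Rpl5 was read together with Gm15500 and Rpl5-ps1, picked from its 6 near-identical genes after their values were seen. Its own row went from 15.1 ± 0.802 to 76.0 ± 10.1 CPM, while the row of its near-identical copy Gm15500 went from 113 ± 7.25 to 65.3 ± 7.02 CPM and Rpl5-ps1 from 42.3 ± 4.73 to 31.6 ± 4.34 CPM. The sum of the 3 rows was 171 ± 11.3 CPM in FLO and 173 ± 17.9 CPM in fibrotic livers, a log2 difference of 0.01 (two-sided exact permutation test, p = 0.870). Since the rows were picked on their values, this p is no evidence of an unchanged sum. How reads were divided among these rows was not tested. Of the 35 members, only Fbl, Npm1, Nop56 and Pes1 had such copies by the criteria used, and in the last 3 the copies held 0.03% to 1.88% of the counts.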

How the data were processed

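RNA-seq of 12 whole mouse livers was analysed, 6 FLO and 6 fibrotic, grouped by sample title. The authors deposited 1 table of raw counts per Ensembl gene. The submitters' processing notes name bcl2fastq, STAR 2.7.3a and mm10, while the annotation, the treatment of multiply matched reads and the strand setting are not given in the sources used here. A symbol was found for 51745 of 56205 identifiers. The other 4460 are not in GENCODE M21, so no coordinates are given for counted genes.

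Counts were fitted with edgeR (version 4.0.16, under R 4.3.3) by robust quasi-likelihood after TMM scaling and filterByExpr, and p-values were adjusted by Benjamini-Hochberg over 13416 genes. Genes were called at an adjusted p of 0.01 or less and an absolute log2 fold change over 0.5, as in the study's methods. CPM are scaled by TMM, and log2 CPM used a prior count of 2. The SE is the absolute log2 fold change over the square root of F. Depth was 17815568 to 24814263 counts per library, and counting error is part of the SDs. P-values measure the spread between libraries, 1 per mouse. Every pair of libraries of a group differed by more than sampling noise (chi-square per degree of freedom of 10.7 or more). The procedure was tested on simulated data. It called 64% and 70.8% of genes with simulated log2 changes of 1 and -1. For changes of 0.8 and -0.8 it called 56% and 46.9%. A gene that was not called may therefore still differ. Near-identical copies were found with BLAST 2.17.0 (95% identity over at least 30% of the transcript). Single values were tested in SciPy 1.17.1 by exact permutation.

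The 35 members and the other lists were chosen with earlier results of these data known. All members are named, with values per group for called members and for Npm1, Ncl, Fbl, Dkc1, Polr1a, Polr1b, Rrn3 and Ubtf, and from each further list the called genes with the largest absolute log2 fold change, at most 4, plus Myc. Subunit ratios and the values of Wdr12, Nop53, Sirt7 and the copies of Rpl5 were added after values were seen. Alternatives were RLE, upper quartile and library-size scaling, TMM without 50 genes, no filter or at least 10 counts, DESeq2 1.42.0, limma-voom 3.58.1, a fit that was not robust, other thresholds, a replicate block, and leaving out each library.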

Additional observations from a re-analysis of the deposited data

Results flagged for a closer look

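In 6 of 70 combinations of gene and group, 1 library lay far from the other 5, by Dixon's ratio of the gap to the whole range on log2 CPM. Chance flags about 3.5 of 70. Fibrotic replicate 4 was the highest of its group for Nolc1 (ratio 0.796, 37.2 CPM against 21.7 to 24.2 in the others), Nop58 (ratio 0.761, 17.3 CPM against 7.95 to 9.58) and Rrs1 (ratio 0.727, 88.4 CPM against 47.1 to 55.9). Fibrotic replicate 1 was the highest for Nhp2 (ratio 0.631, 53.4 CPM against 40.7 to 45.0) and Nop16 (ratio 0.636, 23.4 CPM against 17.5 to 19.5). FLO replicate 5 was the lowest for Bysl (ratio 0.633, 14.6 CPM against 17.1 to 18.8). Nolc1, Rrs1, Nhp2 and Bysl were called in all 22 alternatives that kept the thresholds, those without these libraries included.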

How the results depend on the processing

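Of the 11 called members, 10 were called in all 22 alternatives that kept the thresholds and Ddx21 in 15. Ddx21 fell short under RLE (0.50), upper quartile (0.49), limma-voom (0.50), the replicate block (0.50) and without fibrotic replicate 4, FLO replicate 2 or FLO replicate 3. Leaving out 1 library gave 9 to 10 members higher, 1 to 2 lower (Wdr12 added without fibrotic replicate 1 or FLO replicate 4), a median of 0.20 to 0.30, and 28 to 32 higher and 10 to 14 lower genes of all further lists (29 and 13 with all libraries). Scaling by library size alone shifted the median of all genes by 0.18, raised the member median to 0.44 and called 13 members higher (Polr1b, Rrp1b and Wdr43 added), with 52 higher and 6 lower list genes. With an adjusted p of 0.05 and no fold threshold, 17 members were higher and 4 lower, with 60 higher and 23 lower list genes. With an adjusted p of 0.01 and no fold threshold, 12 members were higher and 2 lower, with 45 higher and 21 lower list genes. With an absolute log2 fold change over 1, 1 member was higher and 0 lower, with 11 and 4 list genes.

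In all, 6 uncalled members changed sign. Under RLE, upper quartile and DESeq2, Ubtf was -0.0066, -0.013 and -0.0052 and Rrp9 -0.0089, -0.013 and -0.0075, and Rrp9 was -0.021 under both limma-voom and the replicate block. Under library size alone Dkc1 was 0.14, Nop14 0.088, Utp4 0.12 and Bop1 0.039. Leaving out 1 library gave -0.054 to 0.057 for Ubtf, -0.11 to 0.045 for Dkc1, -0.086 to 0.13 for Rrp9 and -0.15 to 0.0028 for Utp4. The replicate numbers do not pair the mice: correlations of same-numbered libraries ran from -0.16 to 0.10. With the replicate block 9 members were higher and 1 lower, the median was 0.23, and 27 list genes were higher and 11 lower. The cause of these changes was not tested.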
